A study of Homo sapiens with 6 samples.

Results

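The Krüppel-like factor (KLF) genes KLF2, KLF4, KLF5, KLF6, KLF7, KLF9, KLF10, KLF11, KLF12 and KLF13 are described here, 10 genes chosen by symbol from the 31814 genes of the deposited expression table. All 10 had a row in the table. The data are messenger RNA libraries of H69, a human cell line, 3 made after 24 h with 1 µM trichostatin A (TSA) and 3 after 24 h with the solvent DMSO (vehicle). The compound blocks histone deacetylases, which strip acetyl marks from histones. The treated samples carry the tag HSA in GEO's labels, while the design text and treatment protocol name TSA, and they are called TSA here. No tissue is given in the labels, and more than one human line goes by the name H69. Both groups were the same line in RPMI medium with 10% serum.

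KLF proteins are transcription factors that bind GC-rich and CACCC-type sequences through zinc fingers at the carboxyl end, a domain they share with the SP factors. Outside it they differ, and the family is usually divided by the partners its members recruit. KLF2, KLF4, KLF5, KLF6 and KLF7 belong to a group known mainly as activators that work with acetyltransferases. KLF9, KLF10, KLF11 and KLF13 bind the SIN3 corepressor, and KLF12 binds the corepressor CtBP. Since SIN3 acts largely through histone deacetylases, the family lies close to the enzymes that TSA inhibits.

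After TSA, 6 of the 9 KLF genes tested fell, 1 rose and 2 did not pass the test. KLF12, KLF7, KLF13, KLF5, KLF11 and KLF4 fell, in order of the size of the change, from a log2 fold change of −1.74 for KLF12 to −0.44 for KLF4. KLF9 rose, with a log2 fold change of 1.05. KLF10 and KLF6 did not pass the test, and KLF2 was too low to be tested. The test was limma on log2(TPM + 1), where TPM is the reads of a gene scaled by its length and by the library total. It was fitted across the 17596 genes that reached 1 TPM in at least 3 of the 6 libraries, with Benjamini-Hochberg adjustment and a threshold of 0.05. Of all tested genes 34.2% were called lower, 28.0% higher and 62.2% in either direction. The KLF counts of 6 lower and 1 higher among 9 are to be read against those shares. The TSA and vehicle values were fully separate for 8 of the 9 tested KLF genes, and for 67.0% of all tested genes. The median log2 fold change of the 9 was −0.77, beside −0.095 over all tested genes.

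Promoter windows of the KLF genes are shown because the family binds GC-rich and CACCC-type sequences, and because KLF9 went against KLF4 and KLF13. RefSeq windows on build GRCh38.p14, from 250 bases before to 50 bases after an annotated start, were at hand for 9 of the 10 genes, and KLF10 had none. The windows were searched on both strands for GGGCGG, the GC box, and for CACCC. A GC box match was present in at least 1 window of 8 of the 9 genes, and in 9 of their 17 windows. CACCC was present in at least 1 window of 5 of them, and also in 9 of the 17 windows. Over all 35116 windows of the table, 45.0% held GGGCGG and 59.9% held CACCC. These shares are per window and so stand beside the counts of windows, not of genes. The deposited files use build hg19, so these positions are not theirs.

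Printed 5′ to 3′ on the gene's strand, the windows of the 4 genes below, each with a single annotated start in the table, have the matches in capitals. KLF9, which rose, is at chr9:70414608-70414907, minus strand. KLF13 and KLF4, which fell, are at chr15:31326585-31326884, plus strand, and at chr9:107489720-107490019, minus strand. KLF6, which did not pass the test, is at chr10:3785160-3785459, minus strand.
KLF9: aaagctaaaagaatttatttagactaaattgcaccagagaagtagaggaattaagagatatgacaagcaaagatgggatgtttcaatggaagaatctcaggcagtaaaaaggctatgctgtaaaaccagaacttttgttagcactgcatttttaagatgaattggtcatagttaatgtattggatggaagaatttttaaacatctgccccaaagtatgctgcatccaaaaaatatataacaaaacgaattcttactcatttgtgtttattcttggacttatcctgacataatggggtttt
KLF13: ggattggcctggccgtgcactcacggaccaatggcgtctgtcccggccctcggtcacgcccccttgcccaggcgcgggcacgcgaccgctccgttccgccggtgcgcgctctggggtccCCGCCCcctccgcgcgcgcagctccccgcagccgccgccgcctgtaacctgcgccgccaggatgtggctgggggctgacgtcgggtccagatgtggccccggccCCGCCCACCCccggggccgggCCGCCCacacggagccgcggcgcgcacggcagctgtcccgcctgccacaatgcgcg
KLF4: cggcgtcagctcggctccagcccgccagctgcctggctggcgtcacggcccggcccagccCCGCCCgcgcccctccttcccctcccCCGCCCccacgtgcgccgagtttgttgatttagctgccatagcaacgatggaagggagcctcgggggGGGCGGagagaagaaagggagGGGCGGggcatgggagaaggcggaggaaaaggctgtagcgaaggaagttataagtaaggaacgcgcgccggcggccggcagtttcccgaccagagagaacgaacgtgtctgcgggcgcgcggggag
KLF6: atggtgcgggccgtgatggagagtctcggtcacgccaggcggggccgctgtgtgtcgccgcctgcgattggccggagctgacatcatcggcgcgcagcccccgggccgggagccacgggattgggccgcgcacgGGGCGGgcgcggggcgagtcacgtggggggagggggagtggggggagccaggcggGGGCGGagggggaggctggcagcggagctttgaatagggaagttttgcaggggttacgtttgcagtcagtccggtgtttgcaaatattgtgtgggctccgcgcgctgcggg

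The KLF9 window had no match to either motif and a GC content of 32.7%, against a median of 58.7% over all windows. The KLF13 window had 3 GC boxes and 1 CACCC, in part overlapping each other, at 78.3% GC. KLF4 had 4 GC boxes at 69.0% GC, and KLF6 had 2 at 70.7% GC. Low GC without a GC box was not particular to KLF9. Among genes that fell, KLF7 had a window at 43% GC and KLF12 had windows at 46% and 41% GC with neither motif. KLF5 had a window at 40.7% GC with no GC box. Each of these genes also had another window with GC boxes. KLF2, not printed, also had a single start, with 6 GC boxes at 80.7% GC. A match of letters is a description of the window and not evidence of binding, and the absence of a match concerns these windows alone.

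Depth was even across the libraries. The lowest whole-read counts that fit the TPM values totalled between 22533307 and 26148651 per library. Whether the replicates of a group were grown as separate cultures is not stated, so the p-values cover library-to-library spread, possibly technical, and no more. The share of TPM from mitochondrial genes was 16.9%, 7.65% and 10.4% in TSA libraries 1, 2 and 3, and 12.4%, 4.97% and 10.1% in vehicle libraries 1, 2 and 3. TSA library 1 and vehicle library 2 thus stood at the ends of that measure. Within each group library 1 was the highest and library 2 the lowest. Of 7 neuroendocrine markers all were tested, 2 higher and 4 lower in TSA, with a summed level of 647 to 763.5 TPM in TSA and 1302 to 1553 TPM in vehicle. Of 6 bile duct markers 4 were tested, 1 higher and 3 lower in TSA. One of the 3, KRT7, reached 1 TPM in vehicle alone, so its fall was bound to show if it was tested. Both marker counts are to be read against the 34.2% of all tested genes called lower and 28.0% called higher. The bile duct markers summed to 265 to 384 TPM in TSA and 748 to 953 TPM in vehicle. Most of that was EPCAM, at 177 to 243 TPM in TSA and 564 to 672 TPM in vehicle, and KRT19, while CFTR was at 0.129 TPM or less in all 6 libraries. Lymphoid and myeloid markers summed to 3.45 to 5.57 TPM in TSA and 1.18 to 2.22 TPM in vehicle, and fibroblast markers to 5.34 to 7.21 TPM in TSA and 0.211 to 0.906 TPM in vehicle. Most of the first sum was CD68, with means of 3.88 TPM in TSA and 1.14 TPM in vehicle. PTPRC of the same list was lower in TSA, at 0.0431 against 0.480 TPM. Most of the fibroblast sum was COL1A1, while COL3A1 and DCN were at or near 0 in all 6 libraries. The part of all these markers in the KLF results was not tested. In RNA from whole cultures, fewer cells with a transcript and less of it per cell cannot be told apart.

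**Figure D1:**
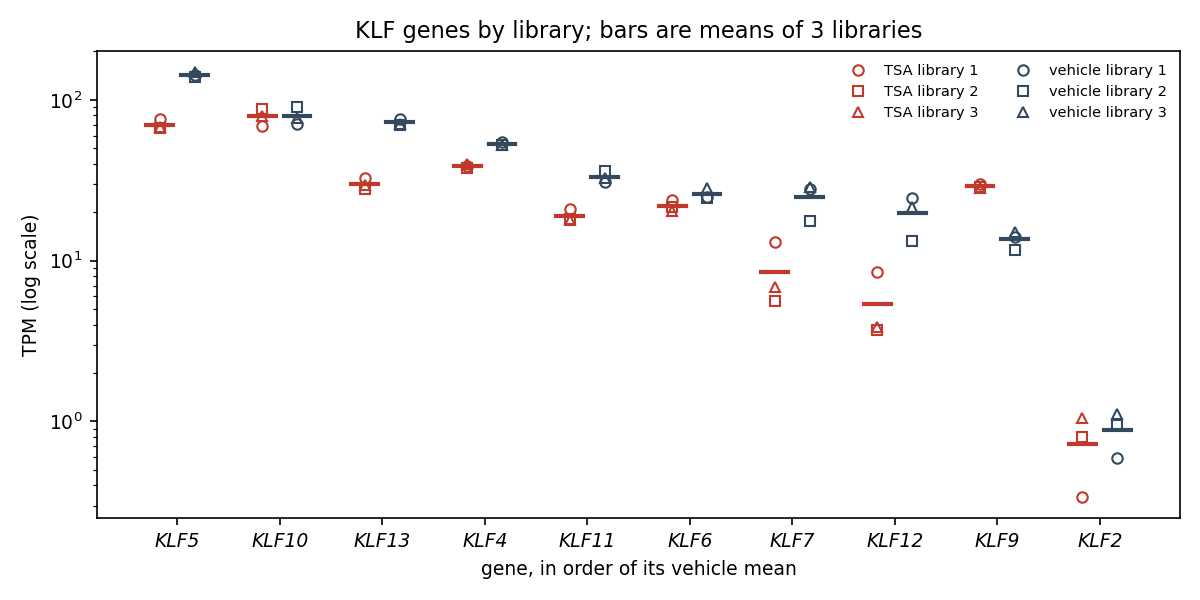
TPM (log axis) of the 10 KLF genes in each of the 3 TSA (red, left) and 3 vehicle (dark, right) libraries, with bars at the group means. KLF9 is the gene whose TSA values all lie above its vehicle values, while KLF10 and KLF2 overlap between the groups.

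Among the activators, KLF5, a factor of proliferating epithelium, was the most abundant KLF gene in vehicle. It stood at 75.8, 67.1 and 67.7 TPM in TSA libraries 1, 2 and 3, against 142, 138 and 149 TPM in vehicle libraries 1, 2 and 3. The groups were far apart and each was tight. The mean was 70.2 ± 4.87 TPM in TSA and 143 ± 5.61 TPM in vehicle (SD, n = 3 each), so TSA libraries held 49.1% of the vehicle level. On the log2 scale the difference was −1.02 (standard error 0.087, limma adjusted p 1e-04).

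KLF4, a factor of differentiated epithelium and of reprogramming to pluripotency, changed least among the genes that fell. Its level was 38.8, 37.5 and 40.1 TPM in TSA, against 54.7, 52.5 and 52.4 TPM in vehicle. Spread within each group was small, at 1.30 TPM (SD) in TSA and 1.30 TPM in vehicle, and the groups did not overlap. On the log2 scale the fold change was −0.44 with a standard error of 0.079 (limma adjusted p 0.0026). Among these 10 genes KLF4 is the one called here but not at that threshold in the deposited statistics, since the authors' deposited table gives it a log2 fold change of −0.38 and an FDR of 0.077.

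KLF7, known for its part in the outgrowth of neurons, was at 13.2, 5.59 and 6.86 TPM in TSA libraries 1, 2 and 3. In vehicle libraries 1, 2 and 3 it was at 27.9, 17.7 and 28.7 TPM. Library 2 was the lowest of each group, and TSA library 1 was the highest of its own, yet the groups did not overlap. The difference on the log2 scale was −1.48 (standard error 0.32, limma adjusted p 0.0067), a wider error than for KLF5 or KLF4. Without TSA library 1 the change was −1.81, and without vehicle library 2 it was −1.70. KLF7-IT1, a transcript inside a KLF7 intron on the same strand, was at 0.431 to 1.47 TPM in TSA and at 0.243 to 1.37 TPM in vehicle.

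KLF6, a widely expressed gene often described as a tumour suppressor, was at 23.8, 21.6 and 20.4 TPM in TSA and at 25.0, 24.5 and 28.3 TPM in vehicle. The values of the groups did not overlap but came within 1 TPM of each other. The log2 fold change was −0.23 with a 95% interval of −0.49 to 0.03 (limma adjusted p 0.11). A fall of up to 0.49 on the log2 scale therefore lies within its error. Corrected for the trends with transcript length and GC content, the value was 0.01.

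KLF2, known for its roles in endothelium and in resting lymphocytes, was scarcely detected. It stood at 0.341, 0.797 and 1.05 TPM in TSA and at 0.594, 0.947 and 1.12 TPM in vehicle. These values rest on 5, 12 and 15 recovered reads in TSA and on 8, 12 and 16 in vehicle, and the groups overlap. KLF2 was below the filter on low values, and a difference was not detectable at this depth. The 5 endothelial markers in the table summed to 8.86 to 12.4 TPM in TSA and 4.38 to 5.04 TPM in vehicle. Most of that was EGFL7, while CDH5, KDR and TEK were each at or near 0 in all 6 libraries.

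The SIN3-binding members moved in different directions. KLF9, a target of glucocorticoid and thyroid hormone receptors in many tissues, was at 29.9, 28.8 and 28.4 TPM in TSA, against 14.1, 11.6 and 15.1 TPM in vehicle. All TSA values were well above all vehicle values. Its mean was 29.04 ± 0.822 TPM in TSA and 13.6 ± 1.78 TPM in vehicle (SD, n = 3 each), a ratio of 2.14. The log2 fold change was 1.05 with a standard error of 0.12 (limma adjusted p 0.00036), above that of 85.0% of all tested genes.

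KLF13, first described as a late activator of a chemokine gene in T cells, is the closest relative of KLF9 in the family. Its level was 32.6, 28.0 and 29.6 TPM in TSA, against 76.6, 69.9 and 70.8 TPM in vehicle. Every TSA value was below 33 TPM and every vehicle value above 69 TPM. The log2 fold change was −1.24 with a standard error of 0.094 (limma adjusted p 6.1e-05). As a result the KLF9 level, per length, was 0.919, 1.03 and 0.959 of the KLF13 level in TSA libraries 1, 2 and 3. In vehicle libraries 1, 2 and 3 that ratio was 0.184, 0.166 and 0.213, so the pair stood about level in TSA and far apart in vehicle.

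KLF11 and KLF10 are the early genes induced by TGF-beta, KLF10 being the first described of the pair. KLF11 was at 21.1, 18.2 and 18.0 TPM in TSA, against 30.9, 35.9 and 32.4 TPM in vehicle, with no overlap. Its log2 fold change was −0.76 with a standard error of 0.11 (limma adjusted p 0.001). KLF10 was at 69.1, 88.1 and 79.5 TPM in TSA and at 70.5, 90.2 and 77.2 TPM in vehicle, so the groups covered the same range. The KLF10 log2 fold change was −0.01 with a 95% interval of −0.32 to 0.31 (limma adjusted p 0.97). Its sign flips to positive under each rescaling of the libraries, up to 0.12, in the test of recovered reads (0.13), and without TSA library 1 (0.08) or vehicle library 2 (0.09). An opposite-strand transcript that overlaps KLF11, AC104794.4, was at 0.301 TPM in TSA library 2 and listed at 0 in the other 5 libraries.

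The CtBP-binding member KLF12, known as a repressor of the AP-2 alpha gene TFAP2A, fell most. It was at 8.50, 3.68 and 3.89 TPM in TSA libraries 1, 2 and 3, against 24.4, 13.2 and 21.4 TPM in vehicle libraries 1, 2 and 3. As with KLF7, library 2 was the lowest of each group. Library 1 was the highest of each group, with no overlap between the groups. The mean was 5.36 ± 2.72 TPM in TSA and 19.7 ± 5.78 TPM in vehicle (SD, n = 3 each), or 27.2% of the vehicle level. Its log2 fold change was −1.74 with a standard error of 0.34 (limma adjusted p 0.0041), and −2.07 without TSA library 1.

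KLF12 and KLF7 have the longest annotated transcripts among the 10, 10637 and 8362 nt in GENCODE 29, against 2018 to 6825 nt for the others. With length and GC trends removed from each library both still passed the test, at −1.17 for KLF12 (limma adjusted p 0.00038) and −1.03 for KLF7 (limma adjusted p 0.0017). Within each group the library with the highest mitochondrial share was not the lowest for either gene, and the library with the lowest share was the lowest for both. The part of that share in the spread of these genes was not tested.

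**Figure D2:**
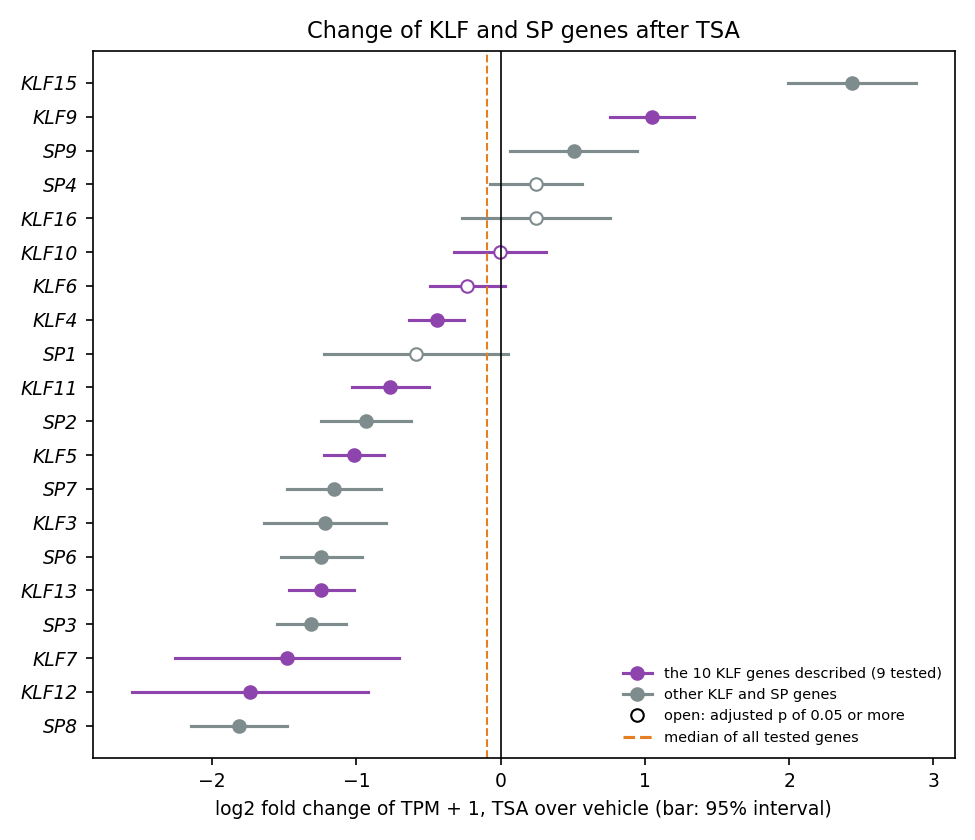
Log2 fold change of TPM + 1, TSA over vehicle, with 95% intervals from limma for the 9 tested KLF genes of the set (purple) and 11 other tested KLF and SP genes (grey). Filled points have an adjusted p under 0.05, and most lie left of the dashed line at −0.095, the median of all tested genes.

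In vehicle the order of levels, per length, was KLF5, KLF10, KLF13, KLF4, KLF11, KLF6, KLF7, KLF12, KLF9 and KLF2. KLF10 overlapped KLF13 there, and KLF6, KLF7, KLF12 and KLF9 each overlapped their neighbour in that order. In TSA the order was KLF10, KLF5, KLF4, KLF13, KLF9, KLF6, KLF11, KLF7, KLF12 and KLF2. There KLF10 overlapped KLF5, KLF13 overlapped KLF9, KLF6 overlapped KLF11 and KLF7 overlapped KLF12. KLF9 was thus the ninth gene in vehicle and the fifth in TSA.

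The 10 genes summed to 303 ± 9.32 TPM in TSA and 466 ± 11.1 TPM in vehicle (SD, n = 3 each). In TSA libraries 1, 2 and 3 the sum was 313, 299 and 295 TPM, and in vehicle libraries 1, 2 and 3 it was 467, 454 and 477 TPM. KLF5 held 23.2 ± 0.926% of the sum in TSA and 30.7 ± 0.514% in vehicle. KLF10, whose own level was alike in both groups, held 26.1 ± 3.74% in TSA and 17.1 ± 2.47% in vehicle. The KLF9 share was 9.59 ± 0.0309% in TSA and 2.91 ± 0.318% in vehicle, and the KLF13 share was 9.92 ± 0.534% in TSA and 15.6 ± 0.788% in vehicle.

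**Figure D3:**
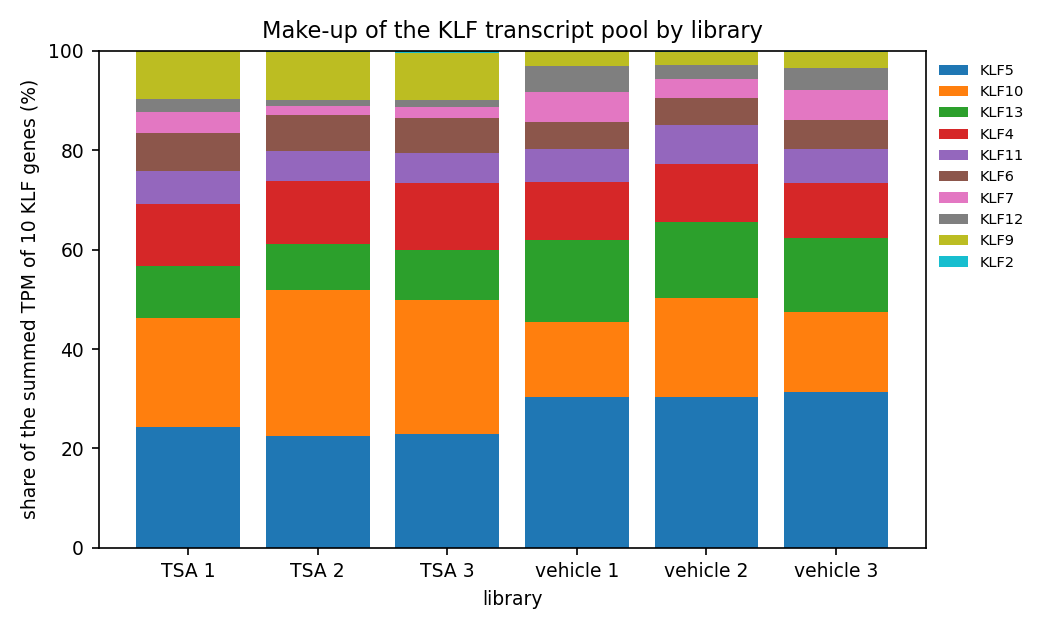
Share (%) of each of the 10 KLF genes in their summed TPM, 1 bar per library, TSA libraries left of vehicle libraries. KLF9 takes 9.56% to 9.62% of the TSA bars and 2.56% to 3.16% of the vehicle bars, and KLF5 takes less of each TSA bar than of any vehicle bar.

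The remaining KLF and SP genes were counted in the same fit. Of these 16 genes 11 were tested, 2 higher and 6 lower, with a median log2 fold change of −0.93. The share called was 72.7%, beside 62.2% of all tested genes. Of these 11, 2 reached the filter in 1 group alone, so their calls do not add to the counts as evidence. Together with the 10 genes above, 20 of 26 family genes were tested, 12 of them lower, 3 higher and 5 not past the test. These totals include the 2 genes that reached the filter in 1 group alone. Over all tested genes 34.2% were lower and 28.0% higher. All 26 summed to 524 ± 30.4 TPM in TSA and 796 ± 29.7 TPM in vehicle (SD, n = 3 each).

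KLF3, a CtBP-binding repressor like KLF12, was at 15.9, 11.0 and 10.1 TPM in TSA, against 31.8, 27.3 and 29.6 TPM in vehicle (log2 fold change −1.22, standard error 0.18, limma adjusted p 0.001). KLF8, the other CtBP-binding gene, had 11, 1 and 7 recovered reads in TSA libraries 1, 2 and 3 and was listed at 0 in all 3 vehicle libraries. It was not tested here, being under 0.2 TPM throughout. The authors' deposited table gives KLF8 a log2 fold change of 5.64 and an FDR of 0.00024. KLF16, a SIN3-binding gene, was at 33.3, 44.8 and 44.7 TPM in TSA and at 27.3, 45.8 and 31.7 TPM in vehicle. It did not pass the test (log2 fold change 0.24, 95% interval −0.27 to 0.76, limma adjusted p 0.36). With length and GC trends removed it turned to −0.03.

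KLF15, known from glucose and amino acid metabolism in liver and muscle, was besides KLF9 the KLF gene called higher in the test made here. It was at 5.99, 3.72 and 4.56 TPM in TSA, against 0.105, 0.0559 and 0 TPM in vehicle. The recovered reads were 124, 79 and 92 in TSA and 2, 1 and 0 in vehicle. The log2 fold change of 2.43 on the log2(TPM + 1) scale (standard error 0.19, limma adjusted p 6.3e-05) understates a change from so low a level, and the test of recovered reads gave 6.33. KLF15 was tested because it passed the filter in TSA alone, so its rise was bound to show if it was tested at all. KLF1, KLF14 and KLF17 stayed at 1.00 TPM or less in every library and were not tested.

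Among the SP genes, SP3, a widely expressed partner and competitor of SP1, fell. It was at 26.7, 23.4 and 22.1 TPM in TSA, against 62.8, 59.4 and 60.9 TPM in vehicle (log2 fold change −1.31, limma adjusted p 6.1e-05). SP8, a developmental factor of limb and brain, fell by 1.81 on the log2 scale, SP6 by 1.24, SP7 by 1.16 and SP2 by 0.93. SP7 was under 1 TPM in every TSA library and reached the filter in vehicle alone, so its fall was bound to show if it was tested. SP1 was at 64.4, 36.0 and 37.9 TPM in TSA and at 81.4, 51.5 and 73.3 TPM in vehicle. TSA library 1 and vehicle library 2 crossed over, as they did not for KLF12 or KLF7, and SP1 did not pass the test (log2 fold change −0.59, limma adjusted p 0.095). It did pass without TSA library 1 (−0.85, limma adjusted p 0.011) and without vehicle library 2 (−0.78, limma adjusted p 0.048).

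SP4 was at 60.7, 52.2 and 49.3 TPM in TSA and at 50.8, 39.0 and 46.9 TPM in vehicle, and did not pass the test (log2 fold change 0.25, limma adjusted p 0.15). It passed, as higher, under 4 of its 19 other settings, with 0.68 once length and GC trends were removed. SP9 was called higher at 3.36 ± 0.561 TPM in TSA and 2.08 ± 0.484 TPM in vehicle (log2 fold change 0.51, limma adjusted p 0.049). The authors' deposited table gives SP9 an FDR of 0.0707. The call made here ended under 11 of its 18 other settings, among them without TSA library 2 or 3 and without vehicle library 1 or 2 (0.40 to 0.50). SP5 stayed under 1 TPM and was not tested.

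**Figure D4:**
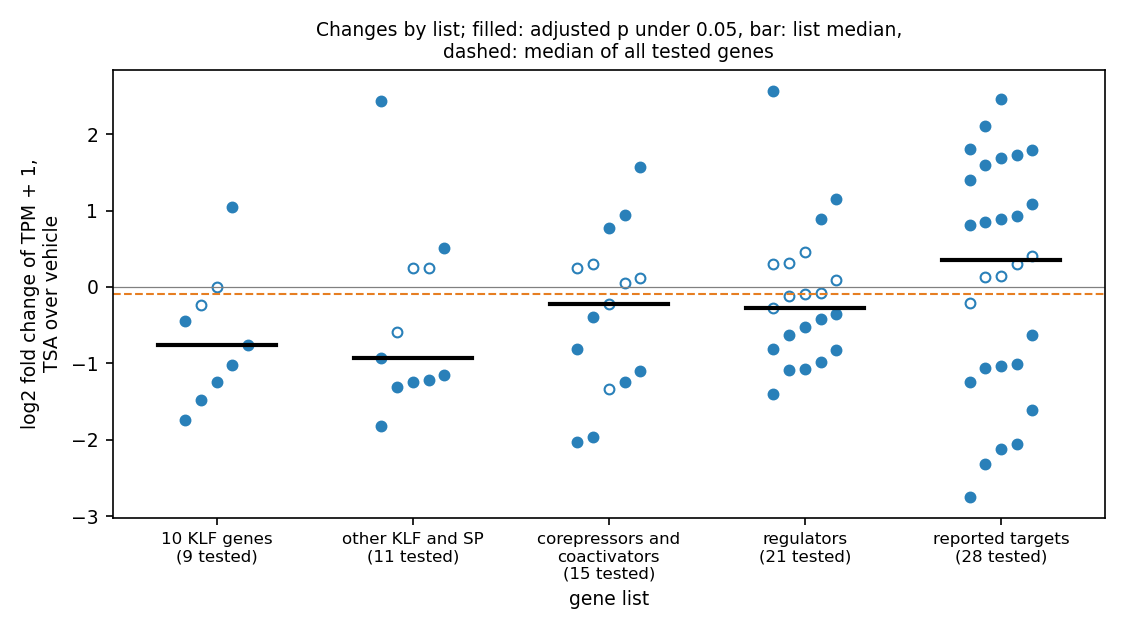
Log2 fold change of TPM + 1, TSA over vehicle, for the tested genes of 5 lists, filled where the adjusted p was under 0.05, with a bar at each list's median and a dashed line at the median of all tested genes. The 10 KLF genes and the other KLF and SP genes have medians of −0.77 and −0.93, and the reported targets spread widely on both sides of 0.

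The proteins that KLF factors recruit were mixed. Of 15 corepressor and coactivator genes, all tested, 3 were higher, 6 lower and 6 not past the test, with a median of −0.22. The share called was thus 60%, near the 62.2% of all tested genes. CTBP2 and CTBP1, the corepressors that bind KLF12, KLF3 and KLF8, both fell. CTBP2 was at 7.21, 8.00 and 8.19 TPM in TSA, against 31.2, 35.8 and 33.3 TPM in vehicle (log2 fold change −1.97, limma adjusted p 2e-05). CTBP1 was at 10.9, 11.7 and 13.4 TPM in TSA, against 27.9, 31.3 and 30.0 TPM in vehicle (log2 fold change −1.25, limma adjusted p 0.00014).

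SIN3A and SIN3B, the corepressors that bind KLF9, KLF10, KLF11 and KLF13, did not pass the test, with log2 fold changes of 0.12 and 0.30. SIN3A passed as higher under a quantile scaling (0.28) and with length and GC trends removed (0.46), and SIN3B under a quantile scaling (0.51). Among deacetylases and other subunits of such complexes, HDAC3 rose by 1.57 on the log2 scale, SAP18 by 0.94 and HDAC1 by 0.77, while the deacetylase gene HDAC2 fell by 0.81 and the histone-binding subunit genes RBBP4 and RBBP7 by 1.10 and 0.40. With length and GC trends removed the calls of HDAC2 (−0.25, limma adjusted p 0.4) and RBBP7 (−0.15, limma adjusted p 0.27) ended, and that of RBBP7 also under median-of-ratios scaling (−0.28) and in the test of recovered reads (−0.26). SIN3A, SIN3B, SAP18, HDAC1, HDAC2 and RBBP7 were singled out after their values were seen.

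The acetyltransferase gene CREBBP was at 14.9, 7.12 and 7.23 TPM in TSA, against 50.8, 26.1 and 50.6 TPM in vehicle (log2 fold change −2.03, limma adjusted p 0.0025). Its relative EP300, also singled out after its values were seen, was at 21.7, 6.07 and 6.87 TPM in TSA and at 40.4, 13.1 and 33.8 TPM in vehicle. For both genes, as for KLF12, library 1 was the highest and library 2 the lowest of each group. For EP300 the groups overlapped, with TSA library 1 above vehicle library 2. EP300 did not pass the test (log2 fold change −1.34, limma adjusted p 0.081), but did without TSA library 1 (−1.87, limma adjusted p 0.013) and without vehicle library 2 (−1.81, limma adjusted p 0.028).

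Of 22 genes that act on KLF genes or proteins, 21 were tested, 3 higher, 10 lower and 8 not past the test, with a median of −0.28. Here 61.9% were called, again near the 62.2% of all tested genes, and 3 of the 21 reached the filter in 1 group alone. NR3C1, the glucocorticoid receptor through which KLF9 is induced in other cells, was at 3.80, 3.30 and 3.50 TPM in TSA, against 0.930, 0.573 and 1.79 TPM in vehicle (log2 fold change 1.15, limma adjusted p 0.0045). FOXO1, which binds KLF promoters in other cells, was at 5.87, 5.24 and 5.03 TPM in TSA, against 0.0773, 0 and 0.146 TPM in vehicle (log2 fold change 2.57, limma adjusted p 2.1e-05). Both NR3C1 and FOXO1 reached the filter in TSA alone, so that a rise was bound to show if they were tested.

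The ubiquitin ligase genes ITCH and SIAH1, whose products are reported to act on KLF10, fell by 1.08 and 1.40 on the log2 scale. Of the TGF-beta signalling genes upstream of KLF10 and KLF11, named after their values were seen, TGFBR2 and SMAD4 fell by 0.81 and 0.82. TGFBR1 was called lower at −0.42, but with length and GC trends removed it was at 0.03, and under a median-of-ratios scaling it no longer passed (−0.30, limma adjusted p 0.062). The SMAD4 call also ended with those trends removed (−0.32, limma adjusted p 0.13).

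Genes reported elsewhere as targets of KLF factors went both ways. Of 46 such genes 42 were in the table and 28 were tested, 13 higher, 10 lower and 5 not past the test, or 82.1% called beside 62.2% of all tested genes. Their median was 0.36, but 3 of the 28 had a vehicle mean under 1 TPM and passed the filter through TSA. Over the 25 others 10 were higher and the median was 0.14, beside −0.20 over all tested genes with a vehicle mean of at least 1 TPM. The 25 still hold PDGFA, which reached the filter in vehicle alone. The 82.1% includes all 4 targets that reached the filter in 1 group alone, so their calls do not add to it as evidence.

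TFAP2A, the gene that KLF12 represses in reporter assays, was at 9.27, 6.72 and 7.35 TPM in TSA, against 62.7, 48.3 and 63.5 TPM in vehicle (log2 fold change −2.75, limma adjusted p 2.5e-05). TFAP2A and KLF12 thus were both lower in TSA. CYP1A1, a xenobiotic-metabolising enzyme gene with a site for KLF9 in its promoter, was at 21.9, 17.1 and 17.8 TPM in TSA, against 3.75, 3.38 and 3.66 TPM in vehicle (log2 fold change 2.11, limma adjusted p 4e-05). SMAD7, an inhibitor of TGF-beta signalling that KLF10 represses in other cells, was at 6.675, 6.465 and 6.503 TPM in TSA, against 33.2, 28.4 and 33.8 TPM in vehicle (log2 fold change −2.12, limma adjusted p 1.8e-05). KLF10 itself did not pass the test.

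ATF3, a stress-induced factor that works with KLF6, rose by 2.47 on the log2 scale, and BIRC5, the survivin gene, fell by 2.32. The other targets given here were named after their values were seen. CDKN1A, the p21 gene that KLF4 and KLF6 activate in other cells, was at 172, 192 and 197 TPM in TSA, against 88.0, 125 and 108 TPM in vehicle (log2 fold change 0.81, limma adjusted p 0.0025). CDKN1C rose by 1.60 and CDKN1B fell by 2.06 on the log2 scale. CDH1, the E-cadherin gene activated by KLF4 in epithelium, was at 66.6, 66.6 and 65.4 TPM in TSA, against 16.9, 19.6 and 18.5 TPM in vehicle (log2 fold change 1.80, limma adjusted p 1.5e-05).

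PDGFA, a growth factor gene activated by KLF5 in vessel walls, fell by 1.03 but reached the filter in vehicle alone, and DRD2, a dopamine receptor gene bound by KLF11, fell by 0.63.

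By the distance between log2(TPM + 1) values over the 6 libraries, the tested genes of other families nearest to KLF9 were HBP1, ZNF34 and BPHL, at distances of 0.265, 0.321 and 0.322. HBP1, a transcription factor gene, was at 30.6, 31.9 and 28.2 TPM in TSA and at 14.1, 13.7 and 15.3 TPM in vehicle. Nearest to KLF12 were PTPRD and JRK, at 0.335 and 0.346. PTPRD, a receptor tyrosine phosphatase gene, was at 7.65, 3.70 and 3.49 TPM in TSA and at 25.0, 13.1 and 26.2 TPM in vehicle. It showed the same high TSA library 1 and low vehicle library 2 as KLF12. Such distances describe likeness over 6 libraries in 2 groups and rest mostly on level and on the difference between the groups.

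**Figure D5:**
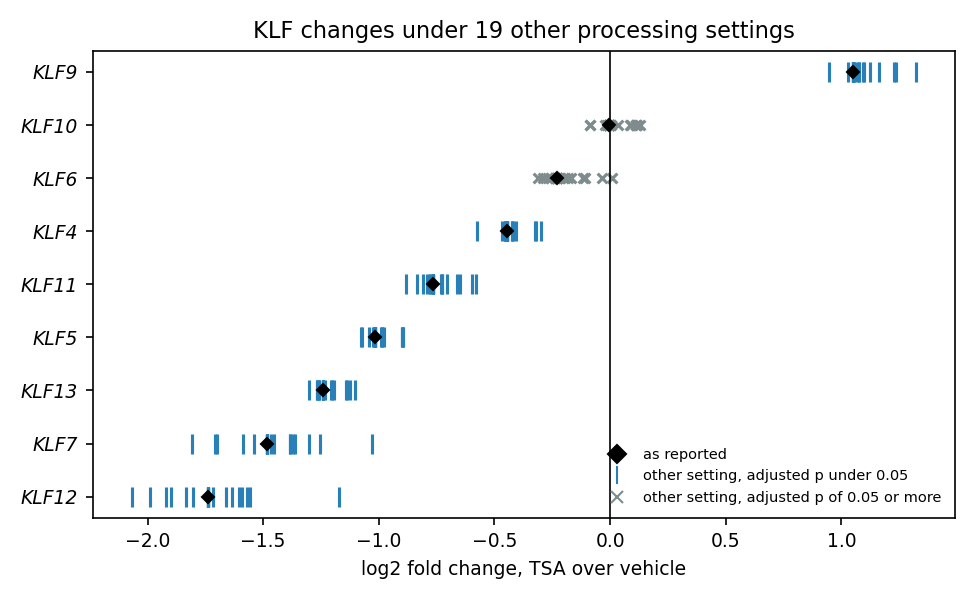
Log2 fold change, TSA over vehicle, of the 9 tested KLF genes as reported (diamonds) and under 19 other processing settings each (ticks where the adjusted p was under 0.05, crosses where not). The 7 called genes kept their sign and their call throughout, with KLF9 at 0.95 to 1.32 and KLF12 at −2.07 to −1.17, while KLF10 lay on both sides of 0 and KLF6 reached 0.01.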

How the data were processed

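Expression was measured by stranded messenger RNA sequencing in 6 libraries, per the labels' protocols. Build hg19 and, among tools, edgeR, featureCounts, STAR 2.5.3a, Picard 1.127 and FastQC 0.11.2 come from the submitters' processing notes, which as used here give no roles. The authors deposited TPM values for 31814 genes of GENCODE 19. Their comparison table holds a log2 fold change, a likelihood ratio score, a p-value and an FDR per gene, per the file headers. Positive values in it mean higher in TSA, as settled against the TPM values. How strand was treated in counting was not given in the sources used here.

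The table held no column of an unmapped sample. Whole reads were recovered from ratios of TPM values for 100% of 27644 genes above 0 in at least 2 libraries (relative tolerance 1e-09). They are the smallest whole numbers that give those ratios, so they are lower bounds. Two-sided tests were made on log2(TPM + 1) by moderated linear models with an intensity trend (limma 3.58.1, R 4.3.3), and fold changes on that scale understate changes of low genes. The test was run on simulated libraries with noise independent between genes and few changed genes. Such data lack deviations shared across the genes of a library, so the run does not give the error rates of these data. Lengths and GC contents are those of the longest GENCODE 29 transcript (94.75% of genes matched). Figures were drawn with matplotlib 3.10.9.

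The KLF genes, the lists and the settings tried were chosen with earlier results of these data known. Named genes were all KLF and SP genes, up to 5 genes with the greatest change past the test in each other list, and the 3 nearest profiles of the KLF genes with the greatest rise and fall. ALPI, IVL, NANOG, CCL5, PECAM1 and MS4A1 were not analysed here. Results for some genes under this naming rule are left out of the text. Other settings were pseudocounts of 0.1 and 0.5, no filter or 5 TPM, median-of-ratios and quantile scaling, rescaling without mitochondrial genes, removal of length and GC trends, limma without trend or with robust variance, limma's voom on recovered reads, the replicate number as a block, and libraries left out.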

Additional observations from a re-analysis of the deposited data

How the results depend on the processing

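The 7 called KLF genes kept their direction and their call under all 19 other settings, and the counts of 6 lower and 1 higher were the same under each. Of the named genes KLF10, KLF6, KLF16 and TGFBR1 changed sign, the last of them from a called −0.42. For KLF10 the values were 0.11 with median-of-ratios scaling and with quantile scaling, 0.034 without mitochondrial genes, 0.12 with length and GC trends removed, 0.13 with voom on recovered reads, 0.0049 without both replicate 1 libraries and, with a library left out, −0.0885 (without TSA replicate 2) to 0.0888 (without vehicle replicate 2), against −0.01 as reported. With length and GC trends removed KLF6 was at 0.0077, KLF16 at −0.0324 and TGFBR1 at 0.0308. The 2 other KLF and SP genes called higher became 1 with pseudocounts of 0.1 or 0.5, no filter, robust variance or without both replicate 1 libraries, 0 with a filter of 5 TPM, and 1 to 2 with a library left out. Corepressor and coactivator genes called higher went from 3 to 6 with quantile scaling and 5 with length and GC trends removed. Regulators called higher went from 3 to 6 and 8 under the same settings, and regulators called lower from 10 to 6 with those trends removed. Reported targets called higher went from 13 to 21 without a filter. The cause of these shifts was not tested, except that a test with no filter includes more genes. Median-of-ratios and quantile scaling moved the median of all tested genes from −0.0954 to 0.0165 and 0.0036, so changes of about 0.1 depend on the scaling. Same-numbered libraries deviated together for replicates 1 and 2 (r = 0.633 and 0.590), while replicate 3 gave r = −0.0729. Deviations within a group of 3 sum to 0, so the value of replicate 3 is not separate evidence against pairing. Whether the numbers pair the samples is not settled by these values, and the test as reported leaves them out. With the replicate number as a block 5637 genes were higher and 6848 lower, against 4929 and 6013 without it. That block changed no KLF call, while SP1 (adjusted p 0.0075) and EP300 (adjusted p 0.0044), both from limma, passed under it. The standard error was 0.18 for KLF7 and 0.18 for KLF12 with the block, against 0.32 and 0.34 without it. KLF2 rests on too few reads for any statement.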

Other observations

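Of the 42 reported KLF targets in the table, 14 stayed below the filter on low values and were not tested. Of these 14, 10 had every TSA value above every vehicle value and 2 had every TSA value below. Of all 14218 genes below the filter, at whatever level, 14.3% had the first pattern and 8.81% the second. Those genes include 4170 above 0 in 1 library alone, which cannot show either pattern. The shares are therefore not those of genes at the level of these targets. CCND1, the cyclin D1 gene that KLF5 activates in other cells, was at 0.741, 0.639 and 0.643 TPM in TSA and at 0, 0.0659 and 0.0877 TPM in vehicle. MAOB, a monoamine oxidase gene with a promoter bound by KLF11, was at 0.451, 0.220 and 0.417 TPM in TSA and at 0, 0.0522 and 0.0463 TPM in vehicle. VIL1, the villin gene of intestinal epithelium, was at 0.179, 0.0775 and 0.163 TPM in TSA and at 1.23, 1.38 and 0.980 TPM in vehicle. THBD and NOS3, endothelial targets of KLF2, were at 0.670 to 0.816 and at 0.0225 to 0.0925 TPM in TSA, and at 0.504 to 0.550 and at 0 to 0.0503 TPM in vehicle. These genes were picked after their values were seen, and the values carry no test.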
